A study of Mus musculus with 14 samples.

Results

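Mammary tumors of MMTV-neu mice were compared with transgenic mammary gland lying next to such tumors, across all genes measured. The series holds 14 samples, and the comparison uses 9 of them: the 5 tumors numbered 22, 24, 26, 50 and 52, and the 4 glands numbered 23, 25, 49 and 51, chosen by their labels and not by any measured value. MMTV-neu mice carry the neu oncogene under a viral promoter (MMTV, of mouse mammary tumor virus) that is active mainly in mammary epithelium. All 9 samples carry the transgene, and the labels call the glands preneoplastic. The labels pair no tumor with a gland and give no age or background strain for these mice. They also do not say whether the samples are separate animals, so the p-values describe only the spread between the arrays fitted, which may be partly technical. The other 5 samples entered the statistical fit for its estimate of spread. They were 2 further tumors called set B and 3 pools of wild-type gland from 5 mice each. By their labels the pools were not all of the same age, and the share of age in that spread was not tested. The transgene's transcript was not analysed here.

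The mammary gland is a tree of ducts set in a fat pad. The ducts have an inner layer of luminal cells, of which some carry hormone receptors and others can make milk, and an outer layer of contractile myoepithelial cells on a basement membrane. Fibroblasts, vessels, immune cells and fat cells make up the rest, and the neu product is a receptor tyrosine kinase of the ErbB family that signals through the RAS and ERK kinases and through PI3K and AKT. In bulk RNA, fewer cells of a type cannot be told apart from less RNA per cell.

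One array read the RNA of each sample on 12488 probe sets as an intensity on a linear scale. Median intensities were 578 to 708 on the tumor arrays and 609 to 784 on the gland arrays, and precision is limited by there being 9 arrays. The arrays of tumors 22, 24 and 26 and glands 23 and 25 came from array lot 2001815, those of tumors 50 and 52 from lot 2004097, and those of glands 49 and 51 from lot 2004907, so that only the first lot holds both tissues. The first principal component of the 9 arrays held 40.9% of the variance, with tumors at 19.7 to 38.4 and glands at -58.0 to -35.4. The second held 23.3%, with the arrays of lot 2001815 on its positive side and the others at -33.9 to -13.5. The log2 ratio of 3′ to 5′ signal of the actin control, which rises as RNA breaks, was 0.49 ± 0.26 (SD, n = 5) in tumors and 0.91 ± 0.51 (SD, n = 4) in glands, a difference with p = 0.167 in a two-sided exact permutation test, where 0.00794 is the smallest p possible. For the Gapdh control that p was 0.984.

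Below, intensities are given for tumors 22, 24, 26, 50 and 52 and for glands 23, 25, 49 and 51, in that order. Intensities under a floor of 101 were set to it before log2 was taken, and where arrays of the lower group were at the floor a fold is a lower bound. Differences are tumor minus gland on the log2 scale with the standard error of the fit, and calls were made at an adjusted p (limma, Benjamini-Hochberg) under 0.05. Of 8616 probe sets tested, 1239 (14.4%) were called, 460 higher and 779 lower in tumors. With 1 probe set per gene, 368 of 6397 genes (5.75%) were higher and 594 (9.29%) were lower. Counts of called members in each list below are to be read against these shares. The largest differences were falls: 73 genes were at least 8-fold lower in tumors and 3 were at least 8-fold higher. Every tumor lay above every gland for 338 genes (5.28%) and below every gland for 525 (8.21%), and 239 and 465 of these were called. The median difference over all genes tested was 0.06. With only the 9 arrays in the fit, 308 probe sets were called higher and 639 lower.

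Transcripts of fat cells were far lower in tumors. Of 28 listed genes of white fat cells, 22 were on the array and tested, and 21 of them fell, against 9.29% of all genes, with a median difference of -3.66. Retn, which encodes the hormone resistin, read 437 in tumor 52 and under the floor in the other 4 tumors, and 17179, 14831, 14096 and 35396 in the glands. The tumors and glands were far apart, with a log2 difference of -7.12 ± 0.40 (adjusted p = 6.44e-09). Adipoq, which encodes the hormone adiponectin, read 529.8, 1169.9, 1472, 473 and 726 in the tumors, and 40379.8, 39127, 31979 and 45744 in the glands. It fell by 5.62 ± 0.36 on the log2 scale (adjusted p = 3.22e-08), with no overlap. The set B tumors, which took no part in this contrast, read 990.0 and 264 for Adipoq.

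Genes that store and release fat fell alongside these hormones. Cidec, a lipid droplet protein, read under the floor in all 5 tumors, and 7478, 3649, 4478 and 9231 in the glands, so that it was at least 57.1-fold lower (adjusted p = 2.32e-10). Plin4, another droplet coat protein, was under the floor in the tumors and 2064 to 12688 in the glands, at least 62.2-fold lower (adjusted p = 4.22e-08). The carboxylesterase gene Ces1d was also under the floor in every tumor and at least 78.3-fold lower (adjusted p = 3.01e-11). Lpl encodes lipoprotein lipase, which frees fatty acids from blood lipids for uptake. Its intensity was 459.7, 1394, 713, 642 and 1098 in the tumors, and 26681, 22969.9, 19055 and 30774 in the glands, a difference of -4.94 ± 0.28 (adjusted p = 6.39e-09). Rbp4, a carrier of retinol, was at least 49-fold lower, and Pck1, an enzyme of glycerol and glucose synthesis, had a difference of -5.15 ± 0.42 (adjusted p = 4.81e-07). Car3, a carbonic anhydrase abundant in fat and muscle, ran at 478 to 1407 in the tumors and 39556 to 64329.8 in the glands. Pparg, the master transcription factor of fat cells, read 152 and 109.9 in tumors 24 and 50 and under the floor in the other 3 tumors, and 1771, 991, 1378 and 2323 in the glands, and fell by 3.78 ± 0.28 on the log2 scale (adjusted p = 1.29e-07). Cdo1, a cysteine dioxygenase, fell by 5.57 ± 0.20 on the log2 scale (adjusted p = 5.02e-11), with intensities of 234 to 477 in the tumors and 13414 to 20125 in the glands. The fatty acid carrier gene Fabp4 fell less, by 2.12 ± 0.26 on the log2 scale (adjusted p = 3.24e-05), and Lep, which encodes leptin, had a difference of -1.26 ± 0.37 (adjusted p = 0.0318) with overlapping groups. A second Lep probe set had a difference of -4.32 (adjusted p = 5.01e-07), so the sizes disagree. The call of the first was lost without tumor 22, 50 or 52 or gland 23 or 25 (adjusted p up to 0.0876).

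**Figure D1:**
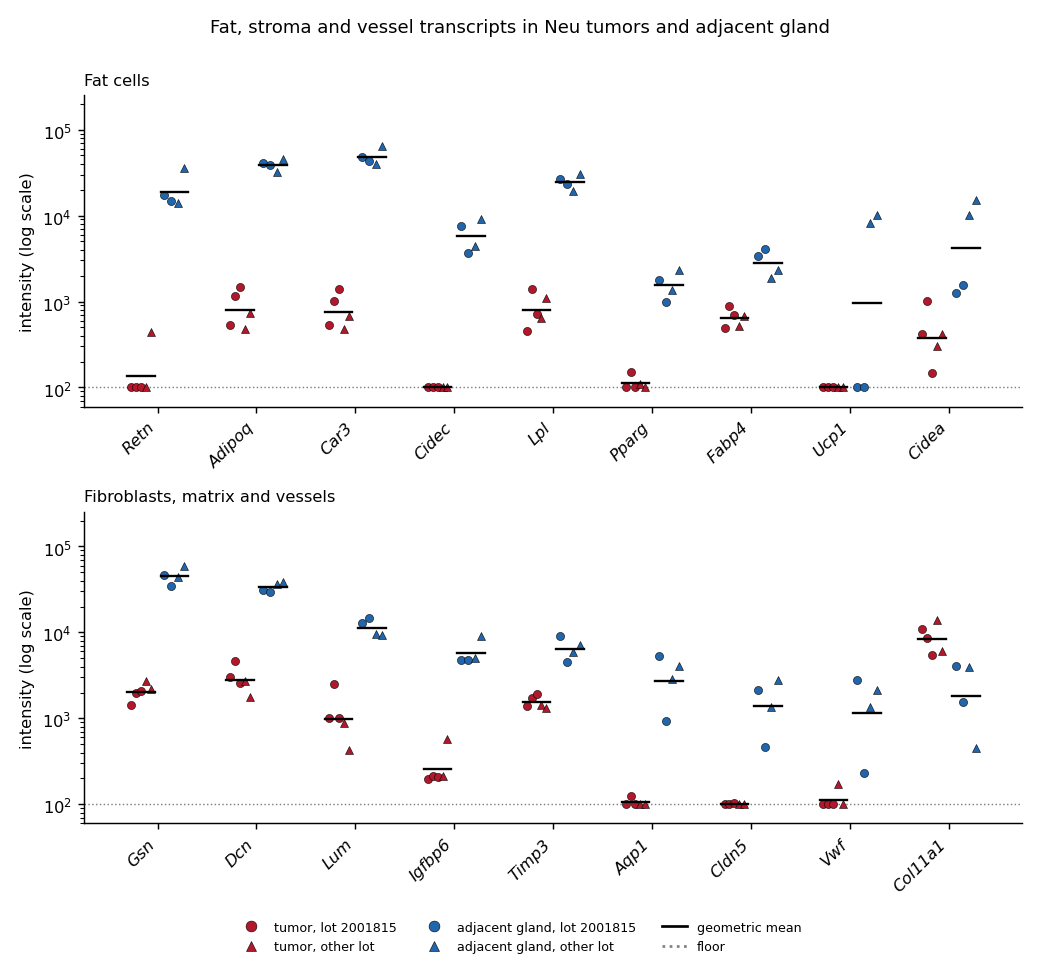
Intensity on a log axis of 9 fat cell genes (top) and 9 genes of fibroblasts, matrix and vessels (bottom) on each of the 5 tumor arrays (red) and 4 adjacent gland arrays (blue). Circles are arrays of lot 2001815, triangles those of other lots, bars are geometric means and the dotted line is the floor of 101, at which lower values are drawn. Tumors lie below all glands for every gene shown except Ucp1, where glands 23 and 25 are at the floor, and Col11a1, where tumors lie above all glands.

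Brown fat transcripts separated the glands from each other. Ucp1, the uncoupling protein of heat-producing fat, read under the floor in all 5 tumors, and 8266 and 10162 in glands 49 and 51 and under the floor in the other 2 glands. Glands 49 and 51 were thus far above every other array and glands 23 and 25 were no brighter than the tumors. Over 9 arrays the difference was -3.25 ± 1.13 (adjusted p = 0.0677), and without gland 51 it was -2.12. A second probe set of Ucp1 was called at -1.47 (adjusted p = 0.0452). Cidea, a lipid droplet protein of brown fat, read 423, 1025, 146, 304 and 416 in the tumors, and 1257, 1576, 10207 and 15262 in the glands. The tumors were below all glands, and the differences were -1.82 in lot 2001815 (adjusted p = 0.0879) and -5.13 on the other arrays (adjusted p = 0.000369). Cox8b, a muscle and brown fat subunit of cytochrome oxidase, likewise ranged from 808 to 1395 in the tumors and 2350.5 to 9392 in the glands, and fell by 2.01 ± 0.33 on the log2 scale (adjusted p = 0.000588). Of 8 listed brown fat genes on the array 5 were tested, and 3 of them fell.

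Genes of lipid and energy metabolism, which are active in fat but not specific to it, are given next. Of 17 tested genes of fatty acid synthesis, 10 fell and 2 rose. Fasn, the fatty acid synthase, read 6199.7, 5202, 8491, 4365 and 5253 in the tumors, and 13902, 38476, 37686 and 63652 in the glands, a difference of -2.55 ± 0.38 (adjusted p = 0.000244). Thrsp, a lipogenic regulator, fell by 3.16 ± 0.36 on the log2 scale (adjusted p = 1.49e-05). Elovl6, a fatty acid elongase, was close to the tumors in gland 23 and highest in gland 51: it read 1291, 858, 991, 1127 and 834 in the tumors, and 1428, 4842, 8335 and 19291 in the glands. It fell by 2.52 ± 0.50 on the log2 scale (adjusted p = 0.00261), and a second probe set by 1.69 (adjusted p = 0.0161). The exceptions were Acsl4, which activates arachidonic acid, and Srebf1, a transcription factor of lipid synthesis. Acsl4 read 25540.0, 16659.8, 26038, 17687 and 20991 in the tumors, and 7581, 4478, 10268 and 4172 in the glands, without overlap, and rose by 1.77 ± 0.25 on the log2 scale (adjusted p = 0.000129). Srebf1 rose by 1.09 ± 0.26 on the log2 scale (adjusted p = 0.0093), from 12131 to 30802 in glands to 26784 to 53441 in tumors, where tumor 24 was below gland 49.

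Of 24 tested genes of the citric acid cycle and fatty acid oxidation, 12 fell and none rose, with a median of -0.63. Pdk4, a kinase that turns off pyruvate dehydrogenase, read 202, 743, 422, 177 and 328 in the tumors, and 2836, 1788, 3651 and 7769.6 in the glands, and fell by 3.41 ± 0.46 on the log2 scale (adjusted p = 9.15e-05). Cpt1a, which admits fatty acids to mitochondria, fell by 1.55 ± 0.26 on the log2 scale (adjusted p = 0.000669), and Decr1, an oxidation enzyme, by 1.78 ± 0.25 on the log2 scale (adjusted p = 0.000129). In contrast, 2 of 40 tested genes of oxidative phosphorylation fell and none rose (median -0.12). Of those, Sdha, a subunit of succinate dehydrogenase, had a difference of -1.005 ± 0.25 (adjusted p = 0.0108). That count was 5 without gland 25 and 1 without tumor 22, gland 49 or gland 51. Glucose handling was split: of 22 tested genes of transport and glycolysis, 5 rose and 6 fell. Slc2a4, the insulin-responsive glucose transporter of fat and muscle, fell by 3.15 ± 0.49 on the log2 scale (adjusted p = 0.000342), with intensities of 106 to 651 in the tumors and 2160.4 to 3627 in the glands. Aldoc, an aldolase isoform, read 53720.2, 49174, 40862, 63459 and 71353 in the tumors, and 20670.4, 3499, 44997 and 11896 in the glands, and rose by 1.96 ± 0.49 on the log2 scale (adjusted p = 0.0123), although gland 49 reached the tumor range. Without gland 25 the difference of Aldoc was 1.295. Ldhb, a lactate dehydrogenase subunit, ran from 2910.4 to 7219 in the tumors and 1315 to 2469 in the glands, and rose by 1.23 ± 0.28 on the log2 scale (adjusted p = 0.0059).

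Stromal transcripts fell next. Of 34 tested genes of fibroblasts and matrix, 28 fell and none rose, with a median of -1.73 (-1.29 within lot 2001815 and -2.14 on the other arrays). Gsn encodes gelsolin, an actin-severing protein abundant in stroma. It read 1434, 1977, 2070.2, 2739.5 and 2222 in the tumors, and 46964, 34394, 43964 and 59844 in the glands, a difference of -4.47 ± 0.20 (adjusted p = 3.46e-10). Dcn encodes decorin, a proteoglycan that binds collagen fibers. Its intensities were 3061, 4695, 2601, 2757 and 1761 in the tumors, and 31258, 29318, 36735 and 38524 in the glands, and it fell by 3.58 ± 0.29 on the log2 scale (adjusted p = 5.04e-07). Lum, a related proteoglycan, read 1008, 2537, 1003, 890.5 and 431 in the tumors, and 12708, 14551, 9632 and 9218 in the glands, and fell by 3.51 ± 0.40 on the log2 scale (adjusted p = 1.61e-05). Clec3b, which encodes tetranectin, had values up to 126.4 in the tumors and 1610.4 to 4586 in the glands, and fell by 4.498 ± 0.29 on the log2 scale (adjusted p = 3.36e-08). Tumor 24 had the highest Lum value among tumors, and it was the highest tumor for 275 of the 594 genes called lower.

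Secreted binding proteins and proteases were called in both directions. Igfbp6, which binds insulin-like growth factor II, read 197, 215, 209, 214 and 572 in the tumors, and 4812, 4719, 5086 and 9209 in the glands, and fell by 4.48 ± 0.30 on the log2 scale (adjusted p = 4.71e-08). Igfbp4, another binding protein, fell by 2.97 ± 0.52 on the log2 scale (adjusted p = 0.00089), and a second probe set by 1.14 (adjusted p = 0.00608). Igfbp4 was not called within lot 2001815 (-2.31, adjusted p = 0.0829). Igfbp3 moved the other way. Igfbp3 read 1238, 1463, 1248, 1230.3 and 1058 in the tumors, and 614, 214, 720.4 and 266 in the glands, without overlap, and rose by 1.64 ± 0.33 on the log2 scale (adjusted p = 0.00302). Timp3, an inhibitor of metalloproteinases, ran from 1319 to 1945 in the tumors and 4522 to 9188 in the glands, and fell by 2.06 ± 0.21 on the log2 scale (adjusted p = 4.29e-06). Mmp3, the stromelysin protease, fell by 3.81 ± 0.61 on the log2 scale (adjusted p = 0.00042), with tumor 24 at 1216 and the other tumors at most 219. Over 17 tested proteases and inhibitors, 4 fell and 1 rose, against 9.29% and 5.75% of all genes.

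Basement membrane genes followed. Of 18 tested, 11 fell and 1 rose, with a median of -0.92, and the count of falls was 7 without tumor 26, tumor 50 or gland 23 and 6 without gland 51. Lama2, the laminin chain of muscle and fat cell membranes, fell by 2.71 ± 0.30 on the log2 scale (adjusted p = 1.41e-05), and Nid1, which links laminin to collagen IV, by 1.86 ± 0.31 on the log2 scale (adjusted p = 0.000681). A list of collagens and other matrix genes had 12 tested members, of which 4 rose and 3 fell. Npnt among the rises, Fn1 among the falls, and the uncalled Tnc and Vcan are not collagens. The fibrillar chains Col1a1, Col1a2, Col3a1, Col5a1 and Col5a2, counted with the fibroblast genes, were called lower. Their differences were -1.90, -1.95, -2.83, -0.88 and -1.62. Col11a1, a fibrillar collagen chain, read 10875, 8688, 5501, 14008 and 6045 in the tumors, and 4027, 1540.3, 3954 and 451 in the glands, without overlap, and rose by 2.22 ± 0.51 on the log2 scale (adjusted p = 0.00685). Col9a1 ran from 11096 to 32306 in the tumors and 3095 to 8730.2 in the glands, and rose by 1.66 ± 0.33 on the log2 scale (adjusted p = 0.00271). Col17a1, a collagen of hemidesmosomes, which anchor epithelium to the basement membrane, read 160.0, 114 and 124 in tumors 24, 26 and 52 and under the floor in the other 2 tumors, and 930.2, 214, 1064 and 893 in the glands. It fell by 2.48 ± 0.42 on the log2 scale (adjusted p = 0.000747). Npnt encodes nephronectin, an integrin ligand of basement membranes, and read 23677, 10424, 20795, 25403 and 15828 in the tumors, and 4024, 746, 10959.7 and 617 in the glands. Its difference of 3.11 ± 0.65 (adjusted p = 0.00385) was among the 3 rises of 8-fold or more, although gland 49 lay above tumor 24. Npnt was not called in lot 2001815 (3.32, adjusted p = 0.0582) or on the other arrays (2.95, adjusted p = 0.115).

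Endothelial genes fell in 17 of 22 tested cases, none rose, and the median was -1.45. Aqp1, a water channel of vessel walls, read 125 in tumor 24 and under the floor in the other 4 tumors, and 5344, 929.8, 2852 and 4069.8 in the glands, a difference of -4.704 ± 0.41 (adjusted p = 7.82e-07). A second probe set of Aqp1 had a difference of 1.12 that was not called (adjusted p = 0.24), so the probe sets disagree. Cldn5, the claudin of endothelial junctions, read 104 in tumor 26 and under the floor in the other 4 tumors, and 2139, 463, 1349.6 and 2794 in the glands, and fell by 3.77 ± 0.41 on the log2 scale (adjusted p = 1.03e-05). Vwf, von Willebrand factor, read 102 and 174 in tumors 24 and 50 and under the floor in the other 3 tumors, and 2809, 229, 1352 and 2120.0 in the glands, where gland 25 was far below the other glands. It fell by 3.37 ± 0.54 on the log2 scale (adjusted p = 0.000437). Tie1, an endothelial receptor kinase, fell by 2.29 ± 0.41 on the log2 scale (adjusted p = 0.000991). Pecam1, a general endothelial marker, was not called (difference -0.29, adjusted p = 0.666). None of 7 tested genes of pericytes and vascular smooth muscle was called by limma (2 at an unadjusted p under 0.05), with a median of -0.18.

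Luminal epithelium was present in both tissues. Krt8, a keratin of luminal cells, read 15546, 14955, 17479.9, 17860.4 and 21702 in the tumors, and 15544, 10238, 14729 and 9414 in the glands, and the groups overlapped at their edges. Its difference was 0.51 ± 0.20 (adjusted p = 0.102). Krt18, its partner, had a difference of 0.72 ± 0.28 (adjusted p = 0.103). Krt18 passed the threshold without gland 49 (0.92, adjusted p = 0.0435) and was at 0.48 without gland 25. Of 25 tested luminal genes 8 rose, against 5.75% of all genes, and 1 fell, with a median of 0.42. The 8 became 5 without tumor 52, gland 25 or gland 51. Epcam, an adhesion molecule of epithelial cells, read 15181, 11087, 12306, 9776 and 14445 in the tumors, and 5541, 3717, 5462 and 2482 in the glands, without overlap, and rose by 1.6 ± 0.24 on the log2 scale (adjusted p = 0.000202). Lcn2, a secreted iron-binding protein, was among the brightest genes, at 65513 to 95457 in the tumors and 15716 to 45491 in the glands, and rose by 1.56 ± 0.27 on the log2 scale (adjusted p = 0.000911). A second probe set of Lcn2 was at 0.84 and not called (adjusted p = 0.09). Spint1, an inhibitor of membrane proteases, rose by 1.41 ± 0.22 on the log2 scale (adjusted p = 0.000408). Kit, a receptor kinase of luminal progenitors, had a difference of 1.32 ± 0.38 (adjusted p = 0.0256), with glands 23 and 49 above tumor 24. Its call was lost without tumor 22, 50 or 52 or gland 25 or 51 (adjusted p up to 0.0975). Tight junction and desmosome genes gave 6 rises and 1 fall among 18 tested (median 0.43), and the fall was Cldn5.

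Of the 25 genes tested in the luminal epithelial list, 5 had a negative difference, 1 of them called lower, and 16 of the 25 were not called. The gene called lower was Krt19, a keratin of luminal ducts. It read 252 and 1275 in tumors 22 and 24 and under the floor in the other 3 tumors, and 11853, 7550.5, 11414 and 14165 in the glands. Tumor 24 was the highest tumor, and still far below every gland. The difference of -5.76 ± 0.58 (adjusted p = 4.51e-06) came from the brighter probe set, and a second one fell by 3.18 on the log2 scale (adjusted p = 6.66e-07). For the first, the set B tumors read 217 and under the floor.

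The hormone-sensing luminal class was thinly measured. Of 12 listed, 8 were on the array and 6 tested, of which 3 fell and 1 rose. Foxa1, a transcription factor that opens chromatin for the estrogen receptor, read 115, 116, 201 and 145 in tumors 22, 24, 50 and 52 and under the floor in tumor 26, and 2426, 1847, 847 and 900.5 in the glands. The glands of lot 2001815 were the brighter ones, and the difference was -3.37 ± 0.34 (adjusted p = 4.29e-06). It was -4.26 in lot 2001815 (adjusted p = 8.02e-06) and -2.36 on the other arrays (adjusted p = 0.0012). Cited1, a transcription co-activator of estrogen-responsive cells, read 640.0, 1129, 449.9, 331 and 942 in the tumors, and 3012, 7163, 2452 and 3519 in the glands, and fell by 2.55 ± 0.36 on the log2 scale (adjusted p = 0.000128). S100a6, a calcium-binding protein, fell by 1.47 ± 0.37 on the log2 scale (adjusted p = 0.0128), with tumor 24 only slightly below the lowest gland. Socs2, a feedback inhibitor of growth hormone and prolactin signaling, rose instead. It read 23418, 15679, 32898, 30603 and 26434 in the tumors, and 5533, 2378, 18209 and 2505 in the glands, a difference of 2.34 ± 0.45 (adjusted p = 0.00187), and gland 49 lay above tumor 24. Without gland 51 a total of 5 genes of the list fell.

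**Figure D2:**
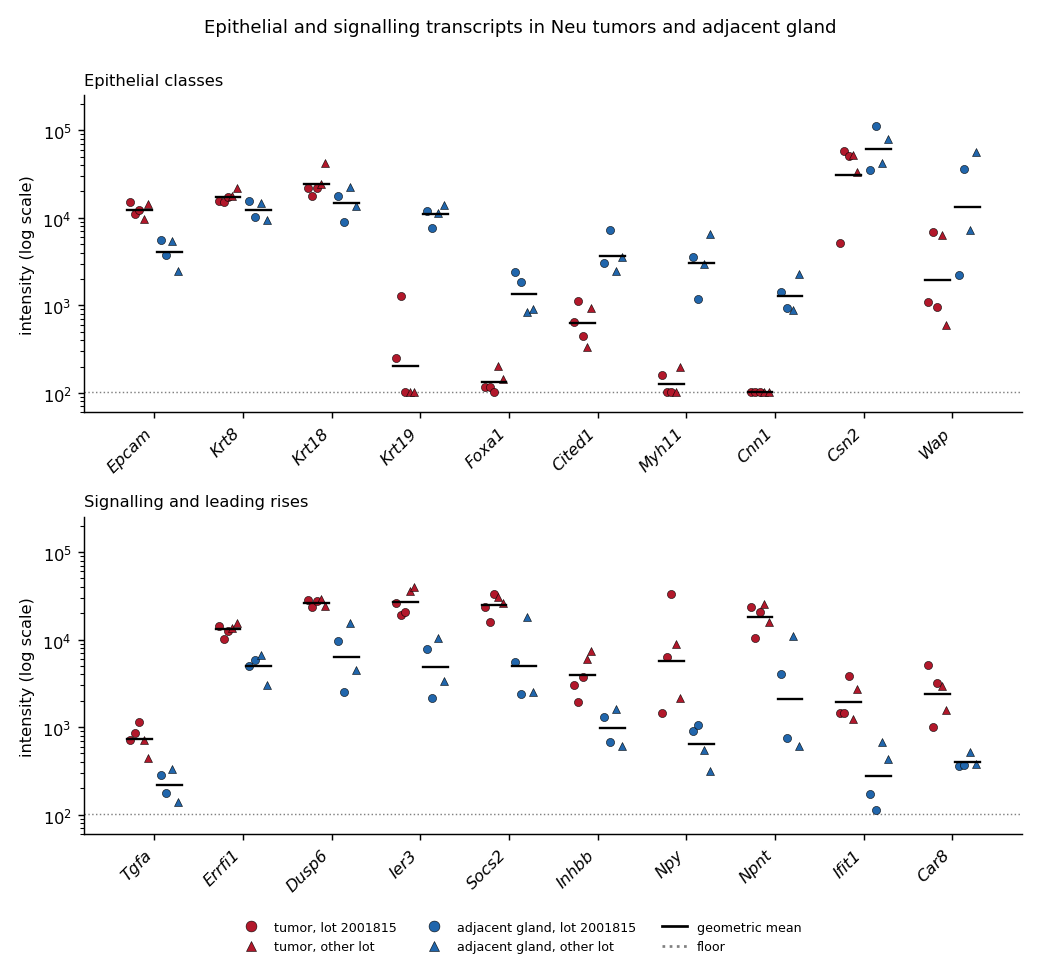
Intensity on a log axis of 10 genes of epithelial classes (top) and 10 genes of signaling and the leading rises (bottom) on each tumor array (red) and adjacent gland array (blue). Circles are arrays of lot 2001815, triangles those of other lots, bars are geometric means and the dotted line is the floor of 101, at which lower values are drawn. Krt8 and Krt18 overlap between the groups, while Krt19, Foxa1, Cited1, Myh11 and Cnn1 do not.

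Most myoepithelial genes tested fell. Of 14 tested genes, 8 fell and 1 rose, with a median of -1.29. The riser was the integrin gene Itgb4, at 0.76 (adjusted p = 0.0446). Its call was lost without tumor 22, 24, 50 or 52 or gland 23, 25 or 51. It was also lost within lot 2001815 and on the other arrays. Itga6, Actg2, Krt17, Cdh3 and Tpm2 were not called, with differences of 0.67, 0.31, -0.22, -0.32 and -1.12. The falls include Trp63, which is not contractile, at -0.91 (adjusted p = 0.0268). Myh11, the myosin heavy chain of smooth muscle and myoepithelium, read 158 and 199 in tumors 22 and 52 and under the floor in the other 3 tumors, and 3579.7, 1196, 2952 and 6548 in the glands, a difference of -4.57 ± 0.40 (adjusted p = 9.08e-07). Cnn1, calponin, was up to 102 in the tumors and 889.8 to 2266 in the glands, and fell by 3.66 ± 0.31 on the log2 scale (adjusted p = 5.81e-07). Acta2, smooth muscle actin, read 2459.7, 2491, 1486, 883 and 1703 in the tumors, and 11201, 7102, 6026 and 11880.3 in the glands, and fell by 2.36 ± 0.28 on the log2 scale (adjusted p = 2.35e-05). Tagln, transgelin, fell by 2.75 ± 0.25 on the log2 scale (adjusted p = 1.47e-06). These contractile genes are shared with the smooth muscle of vessels. Krt5 and Krt14, keratins that define the class, did not pass the filter on dim probe sets in either tissue (at most 242.0 and 242.5 on any of the 9 arrays), so this class is measured here mainly by its contractile genes.

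Of 16 tested genes listed for milk proteins and secretion 1 rose and 1 fell, against 5.75% and 9.29% of all genes. Csn2, beta-casein, read 5083, 58170.0, 50891, 51605 and 33708 in the tumors, and 35178, 113073, 42124 and 80102 in the glands, with tumor 22 apart from the others, and was not called. Its difference was -0.99 ± 0.58 (adjusted p = 0.306), and -0.35 without tumor 22. Wap, whey acidic protein, read 1104, 6896, 954, 6352 and 600.5 in the tumors, and 2195, 36460.2, 7228 and 56349.7 in the glands, with glands 25 and 51 far above glands 23 and 49. Its difference was -2.79 ± 1.01 (adjusted p = 0.0812). Falls among the milk genes numbered 4 without tumor 24 and 3 without gland 23. The riser was Aldoc, the aldolase given above with the glycolytic genes, so no milk protein gene was called higher. The gene called lower was Cel, at -1.996 (adjusted p = 3.08e-05).

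Growth factor signaling was examined through the ErbB family and its targets. Of 15 tested ligands, receptors and adaptors, 3 rose and none fell. Tgfa, a ligand of the epidermal growth factor receptor, read 712, 853, 1141, 714 and 443 in the tumors, and 285, 178, 333 and 138 in the glands, without overlap, and rose by 1.75 ± 0.41 on the log2 scale (adjusted p = 0.00832). Errfi1, an inhibitor of ErbB kinases that is itself induced by their signal, read 14336, 10289, 12508, 13566 and 15407 in the tumors, and 4938, 5907, 6693 and 3051 in the glands, and rose by 1.41 ± 0.20 on the log2 scale (adjusted p = 0.000184). Erbb3, the kinase-poor partner receptor, read 11712, 8896, 6871, 12466 and 12891 in the tumors, and 7364, 4239.9, 9226 and 3432 in the glands, with glands 23 and 49 within the tumor range. Its difference of 0.88 ± 0.27 (adjusted p = 0.0379) was not called without tumor 22, 50 or 52 or gland 25 or 51 (adjusted p up to 0.146). Of 21 tested genes of ERK feedback and immediate early response, 4 rose and 2 fell, with a median of 0.10. Dusp6, a phosphatase that acts on ERK and is induced by it, read 28534, 23347, 27732, 29210.3 and 24196 in the tumors, and 9668, 2528, 15427 and 4451 in the glands. The tumors lay close together, the glands were spread, and Dusp6 rose by 2.05 ± 0.37 on the log2 scale (adjusted p = 0.00111). Ier3, a survival gene of the immediate early class, read 26016, 18882, 20413, 35703 and 40116 in the tumors, and 7815, 2137, 10352 and 3345 in the glands, and rose by 2.46 ± 0.39 on the log2 scale (adjusted p = 0.000372). Dusp1, a phosphatase of stress kinases, fell by 0.95 ± 0.17 on the log2 scale (adjusted p = 0.000867), with values of 1140.0 to 1507 in the tumors and 2392 to 2922 in the glands. The immediate early factors Fos, Egr1, Junb and Myc were not called, with differences of 0.24, 0.096, 0.29 and 0.196.

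Of 26 tested genes of TGF-beta, BMP and ID signaling 2 rose and 5 fell, and of 16 of prolactin, STAT5 and SOCS signaling 2 rose and 4 fell. Over all genes 5.75% rose and 9.29% fell. Inhbb, an activin subunit, read 3030.0, 1959, 3766, 6027 and 7484 in the tumors, and 1315, 684, 1593 and 605 in the glands, without overlap, and rose by 2.05 ± 0.39 on the log2 scale (adjusted p = 0.00172). The 4 ID proteins, which block basic helix-loop-helix factors, split by member. Id2 read 28106, 20708, 38653, 18877 and 28815 in the tumors, and 12299, 14218, 11069 and 15394 in the glands, and rose by 0.99 ± 0.21 on the log2 scale (adjusted p = 0.00383). Id4 read 175, 546, 346, 108 and 107 in the tumors, and 2228, 2742, 1292 and 997 in the glands, and fell by 3.01 ± 0.46 on the log2 scale (adjusted p = 0.000312), while Id1 and Id3 fell by 1.82 ± 0.32 on the log2 scale (adjusted p = 0.000965) and 1.62 ± 0.25 on the log2 scale (adjusted p = 0.000328). All 4 were without overlap between tumors and glands. Ghr, the growth hormone receptor, ran from 402 to 729 in the tumors and 2206 to 4757 in the glands, and fell by 2.47 ± 0.24 on the log2 scale (adjusted p = 3.43e-06). Il6st, the shared receptor chain of the interleukin-6 family, fell by 1.57 ± 0.26 on the log2 scale (adjusted p = 0.000638), while another of its probe sets had a difference of -0.09. Hey1, a target of NOTCH, rose by 1.897 ± 0.41 on the log2 scale (adjusted p = 0.00452), with gland 49 at 7335 above tumor 24 at 5146.

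Other large rises are given next. Npy, which encodes neuropeptide Y, read 1463, 6377, 32813, 8884 and 2148 in the tumors, and 895, 1045, 552 and 314 in the glands. The tumors differed widely among themselves, with tumor 26 highest, and the difference was 3.16 ± 0.67 (adjusted p = 0.00413). With single arrays left out it ran from 2.52, without tumor 26, to 3.65, without tumor 22. It was 2.801 in lot 2001815 (adjusted p = 0.104) and 3.39 on the other arrays (adjusted p = 0.0671), called in neither. Scrg1, a small secreted peptide, had a rise of similar size, 3.11 ± 0.74 on the log2 scale (adjusted p = 0.00923), but glands 23 and 49 were above tumor 24. It was 3.05 in lot 2001815 (adjusted p = 0.141) and 3.23 on the other arrays (adjusted p = 0.145), called in neither. Hs3st1, which modifies heparan sulfate, read 2659, 5860.3, 943, 924 and 1784 in the tumors, and 718, 427 and 181 in glands 23, 49 and 51 and under the floor in gland 25, and rose by 2.79 ± 0.56 on the log2 scale (adjusted p = 0.00283). Car8, a carbonic anhydrase relative without catalytic activity, read 5083, 1004, 3223, 2943 and 1573 in the tumors, and 362, 367, 523 and 379.7 in the glands. Its glands lay close together and its tumors spread, and it rose by 2.56 ± 0.37 on the log2 scale (adjusted p = 0.00016). Shf, an adaptor of receptor kinases, read 3552, 2455, 7142, 5183 and 3097 in the tumors, and 867, 308, 1896 and 743 in the glands, and rose by 2.35 ± 0.41 on the log2 scale (adjusted p = 0.00089). Tspan8, a membrane tetraspanin, read 7803, 5470.3, 5782, 5388 and 5939 in the tumors, and 1731, 788, 3876 and 487 in the glands, a rise of 2.25 ± 0.42 on the log2 scale (adjusted p = 0.00143). Tpd52l1, of the tumor protein D52 family, rose by 2.12 ± 0.31 on the log2 scale (adjusted p = 0.000208), with 4273 to 5809.9 in the tumors and 641 to 2019.6 in the glands. Prkca, protein kinase C alpha, A2m, a plasma protease inhibitor, and Etnk1, an ethanolamine kinase, had differences of 2.14, 2.42 and 2.1 (adjusted p = 0.0102, 0.0115 and 0.000749). Gland 49 was the highest gland for 183 of the 368 genes called higher, and gland 51 for 43.

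Interferon-induced genes include the largest rise after Npy without overlap. Of 22 tested, 3 rose and 2 fell, against 5.75% and 9.29% of all genes. The median was 0.58, and 6 rose without tumor 22. Ifit1, which binds foreign RNA ends, read 1454, 1459, 3826, 1236 and 2722 in the tumors, and 173, 114, 676 and 433 in the glands. The tumors lay above all glands, and the rise was 2.81 ± 0.47 on the log2 scale (adjusted p = 0.000681). Usp18, which removes the ISG15 tag and limits interferon signaling, read 756, 1557, 4312, 668 and 2159 in the tumors, and 144, 741 and 301 in glands 25, 49 and 51 and under the floor in gland 23, and rose by 2.64 ± 0.60 on the log2 scale (adjusted p = 0.00676), with gland 49 above tumor 50. Irf7, the transcription factor that amplifies interferon production, rose by 1.403 ± 0.32 on the log2 scale (adjusted p = 0.00712), while its second probe set had a difference of 0.58 (adjusted p = 0.254). The falls were Irf1 and Ifi204, and 1 fall was left without tumor 22, 26 or 50 or gland 23, 25 or 49, and 0 without gland 51. The differences of the 3 genes were 3.84, 3.83 and 1.82 in lot 2001815 and 1.76, 1.35 and 1.01 on the other arrays, where none of the 3 was called. The difference between the array sets had an unadjusted p of 0.0147 for Ifit1 and was not called after adjustment.

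Interferon acts through factors that bind a repeat of GAAA in promoters. The RefSeq promoters (GRCm38.p6) of 18 of the 22 genes were searched for GAAANNGAAA on either strand within 250 bases before the start, overlapping copies counted separately. The letters were found in 7 of the 18, against 3.18% of 5126 tested genes with a promoter and 2.98% of all 32851 promoters. The stretches are shown because they set the riser with the motif, Ifit1, beside listed genes that hold the same letters and did not pass the threshold. Capitals mark the motif or its complement.
Ifit1: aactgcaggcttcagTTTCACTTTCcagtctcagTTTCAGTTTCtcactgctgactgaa
Ifit3: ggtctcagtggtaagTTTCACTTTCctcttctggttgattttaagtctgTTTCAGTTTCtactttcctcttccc
Isg15: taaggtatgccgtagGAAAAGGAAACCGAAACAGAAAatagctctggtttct
Rsad2: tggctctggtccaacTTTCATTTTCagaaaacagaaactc
Igtp: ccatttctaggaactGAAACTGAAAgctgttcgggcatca
Gbp2: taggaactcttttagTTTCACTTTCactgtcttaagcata
Gbp3: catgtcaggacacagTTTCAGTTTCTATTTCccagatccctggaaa
The Ifit1 stretch lies at chr19:34640770-34640828, plus strand, bases 119 to 61 before the start, with 2 copies. That of Ifit3 lies at chr19:34583358-34583431, plus strand, bases 171 to 98 before the start, with 2 copies as well, and Ifit3 had a difference of 1.07 (adjusted p = 0.167). The Isg15 stretch, at chr4:156200860-156200911, minus strand, bases 93 to 42 before the start, holds 3 overlapping copies, and its gene had a difference of 0.96 (adjusted p = 0.0776). Single copies were found for Rsad2 at chr12:26456548-26456587, minus strand, bases 135 to 96 before the start, for Igtp at chr11:58199507-58199546, plus strand, bases 49 to 10 before the start and for Gbp2 at chr3:142620589-142620628, plus strand, bases 74 to 35 before the start, and their genes had differences of 0.999, 0.22 and -0.095, none of them called. Gbp3, at chr3:142559984-142560029, plus strand, bases 60 to 15 before the start, has 2 overlapping copies and a difference of 0.67 (adjusted p = 0.234). Irf7 had no match in this window, and Usp18 was not matched to a promoter. A match of letters is a description and not a binding site.

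Some transcripts of several immune cell types were lower in tumors. Jchain, the joining chain of secreted antibody, read 275, 386, 393, 289 and 419 in the tumors, and 1668, 3302, 3569 and 5034 in the glands, and fell by 3.18 ± 0.32 on the log2 scale (adjusted p = 3.7e-06). The kappa chain gene Igkv6-23 ran from 593 to 1196 in the tumors and 8583 to 40966 in the glands, and fell by 4.93 ± 0.50 on the log2 scale (adjusted p = 4.3e-06). The heavy chain gene Ighm fell by 1.36 ± 0.26 on the log2 scale (adjusted p = 0.00181). Immunoglobulin segments are near copies of each other, so a probe set may read several, and the other Ighm probe sets ran from -0.58 to -4.21. Of 11 tested genes of B and plasma cells, 4 fell and none rose, among them Ebf1, a B cell and fat cell transcription factor, by 1.67 ± 0.30 on the log2 scale (adjusted p = 0.00111). Of 7 mast cell genes on the array, 3 passed the filter, and all 3 fell by their brightest probe sets. The filter asks for 3 bright arrays, so the glands alone can carry a gene past it. That all 3 fell is thus no separate support. Cma1, a chymase, read 180.1, 818, 471, 122 and 421 in the tumors, and 1816, 1960.0, 2688 and 4005 in the glands, and fell by 2.94 ± 0.45 on the log2 scale (adjusted p = 0.000282). Cpa3, a carboxypeptidase, and Tpsb2, a tryptase, fell by 2.51 ± 0.38 on the log2 scale (adjusted p = 0.00024) and 2.01 ± 0.29 on the log2 scale (adjusted p = 0.000174). Second probe sets of Cma1 and Tpsb2 had differences of -1.54 (adjusted p = 0.0905) and 0.30 (adjusted p = 0.693), and were not called, while that of Cpa3 was at -1.96 (adjusted p = 0.00208).

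Few macrophage genes were called: 1 of 20 tested fell, none rose, and the median was -0.32. That count was 3 without tumor 24 and 2 without gland 23, 25 or 49. The gene was Mrc1, the mannose receptor, which read 458, 431, 463, 564 and 202 in the tumors, and 1306, 982, 2074 and 2369 in the glands, and fell by 1.98 ± 0.34 on the log2 scale (adjusted p = 0.00071). Csf1r and Cd68, markers of the lineage, had differences of -0.57 and -0.33 that were not called (adjusted p = 0.179 and 0.441). For T and NK cells 4 of 20 genes on the array passed the filter and none was called by limma (0 at an unadjusted p under 0.05), and Cd3d, Cd3e and Cd3g did not pass it. Of 9 tested class II genes, 3 fell. H2-Aa, an antigen-presenting chain, read 3852, 10428, 2149.6, 8384 and 9828 in the tumors, and 12834, 9063, 22279.6 and 24391 in the glands, and its difference of -1.43 ± 0.44 (adjusted p = 0.0412) was lost without tumor 22 or 26 or gland 23, 49 or 51 (adjusted p up to 0.137). The 3 class II falls became 1 without tumor 22, tumor 26 or gland 51.

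Of 32 genes of chemokines and their receptors on the array, 20 passed the filter. Of these 20, 9 fell and 1 rose, with a median of -0.71. As for the mast cell genes, the glands alone can carry a gene past the filter, which bears on this count. The falls numbered 5 without tumor 26 and 4 without gland 51. Ccl9, a macrophage-attracting chemokine, read 134, 1848, 922, 755 and 580.1 in the tumors, and 2926, 2633, 3639 and 8083 in the glands, and fell by 2.62 ± 0.63 on the log2 scale (adjusted p = 0.0096). Cxcl9 and its receptor gene Cxcr3 had differences of -2.27 ± 0.44 (adjusted p = 0.00187) and -2.13 ± 0.37 (adjusted p = 0.00087). Acute phase and complement genes split, with 6 falls and 3 rises among 15 tested. Orm1, orosomucoid, was under the floor in the tumors and 1576 to 6119 in the glands, at least 24.6-fold lower. Hp, haptoglobin, read 1168, 2497, 3704, 1452 and 1478 in the tumors, and 19374, 7876, 20131 and 24503 in the glands, and fell by 3.14 ± 0.40 on the log2 scale (adjusted p = 5.29e-05). Cfp, properdin of the complement cascade, fell by 2.599 ± 0.36 on the log2 scale (adjusted p = 0.000109). Rising were Lcn2, described above, Lbp, which binds bacterial lipopolysaccharide, by 1.19 ± 0.23 on the log2 scale (adjusted p = 0.00184), and Cp, the copper carrier ceruloplasmin, by 1.24 ± 0.28 on the log2 scale (adjusted p = 0.00561).

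Few cell division genes were called. Of 31 tested genes of mitosis none was called by limma (2 at an unadjusted p under 0.05), although 30 had a positive difference, with a median of 0.35 (0.06 within lot 2001815 and 0.62 on the other arrays). The level of this list on each array overlapped between the tissues: the median over its genes of the log2 deviation from the gland mean was 0.15 to 0.69 in tumors and -0.76 to 0.73 in glands. Of 29 tested genes of DNA replication 1 rose, with a median of 0.31, and 3 rose without gland 25. It was Pcna, the sliding clamp of DNA polymerase, which read 12064, 8313, 6769, 7457 and 9408 in the tumors, and 4379, 6282, 7339 and 3629 in the glands. Its difference of 0.73 ± 0.23 (adjusted p = 0.0457) was lost without tumor 22, 24, 50 or 52 or gland 23 or 51 (adjusted p up to 0.165). Ccnd1, cyclin D1, read 11330.5, 8085, 8324, 9973 and 5918 in the tumors, and 6045, 3781, 6989 and 3771 in the glands, a difference of 0.78 ± 0.22 (adjusted p = 0.0234) that was lost without tumor 22 or 50 or gland 25 or 51 (adjusted p up to 0.0904). A second probe set of Ccnd1 was at 0.535 and not called (adjusted p = 0.181). Cdkn2c, an inhibitor of CDK4 and CDK6, read 1834, 1845, 1693, 1841 and 1759.6 in the tumors, and 5199, 4369, 2602 and 5367 in the glands, and fell by 1.23 ± 0.22 on the log2 scale (adjusted p = 0.000922). The tumor values of Cdkn2c lay within a narrow band.

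**Figure D3:**
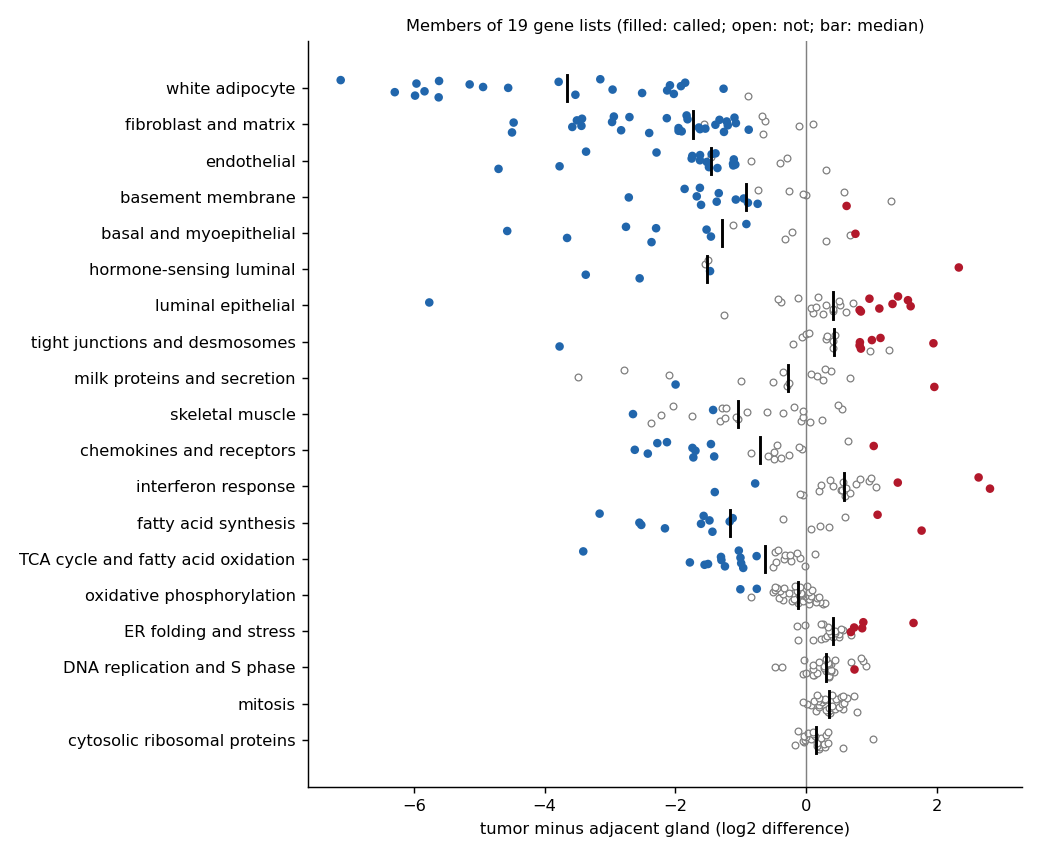
Log2 difference, tumor minus adjacent gland, of each tested member of 19 gene lists. Filled points were called at an adjusted p under 0.05 (red higher, blue lower in tumors), open points were not, and black bars are list medians. The white fat, fibroblast and endothelial lists lie mostly below 0 with medians of -3.66, -1.73 and -1.45, while the mitosis and ribosomal protein lists have no called member.

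In limma's test none of 24 tested ribosomal protein genes was called (median 0.15) and none of 16 nucleolar genes (median 0.03), with 2 and 2 at an unadjusted p under 0.05. Of 25 tested genes of folding and stress in the endoplasmic reticulum, 5 rose and none fell, with a median of 0.42. The 5 became 3 without tumor 22, tumor 26 or gland 49. Xbp1, a transcription factor of secretory cells, read 22250.3, 23295, 33271, 22834 and 25779 in the tumors, and 13385, 12599, 15620.5 and 13479 in the glands, without overlap, and rose by 0.88 ± 0.16 on the log2 scale (adjusted p = 0.00139). Trib3, a stress-induced pseudokinase, rose by 1.64 ± 0.44 on the log2 scale (adjusted p = 0.0186), with 1402 to 2818 in the tumors and 178 to 1189 in the glands. Without gland 51 the difference of Trib3 was 1.04.

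Several enzyme families changed within themselves. Among the 7 tested carbonic anhydrases 3 rose and Car3 fell: Car12, a membrane form, read 5333, 2074, 4446, 7411 and 5297 in the tumors, and 2484, 468, 2106 and 997 in the glands, and rose by 1.86 ± 0.42 on the log2 scale (adjusted p = 0.00672), with glands 23 and 49 above tumor 24. Of 18 tested glycosyltransferases 5 rose and 4 fell. St3gal5, which makes the ganglioside GM3, read 3493, 1976, 4997, 4211 and 4644 in the tumors, and 1127, 176, 2340.4 and 619 in the glands, and rose by 2.33 ± 0.54 on the log2 scale (adjusted p = 0.00809), with gland 49 above tumor 24. Fut8, which adds core fucose to proteins, read 3485, 1941, 3313, 3228 and 3049.8 in the tumors, and 970.0, 985, 682 and 1164 in the glands, without overlap, and rose by 1.66 ± 0.21 on the log2 scale (adjusted p = 4.03e-05). B3galt2, a galactosyltransferase, was under the floor in all 5 tumors and at least 4.86-fold lower (adjusted p = 0.0005). Of 27 tested antioxidant genes, 3 rose and 3 fell, against 5.75% and 9.29% of all genes. Nqo1, a quinone reductase, read 1308, 844, 597, 1262 and 1005 in the tumors, and 535, 103 and 278 in glands 23, 25 and 49 and under the floor in gland 51, and rose by 2.28 ± 0.47 on the log2 scale (adjusted p = 0.00341). A second probe set of Nqo1 was at 0.786 and not called (adjusted p = 0.132), and within lot 2001815 the first was not called (1.89, adjusted p = 0.124). Hmox1, heme oxygenase, rose by 1.22 ± 0.21 on the log2 scale (adjusted p = 0.000728), and Gpx3, a secreted glutathione peroxidase, fell by 2.698 ± 0.29 on the log2 scale (adjusted p = 1.01e-05).

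Xist and imprinted genes formed the last list, of which 10 were tested, 1 rose and 4 fell. Xist, the RNA that silences an X chromosome in female cells, read 5851, 4999.7, 8687, 7608 and 11200.1 in the tumors, and 381, 1313, 7055 and 2014 in the glands. The glands differed widely and gland 49 lay within the tumor range, and the difference was 2.17 ± 0.56 (adjusted p = 0.0145). The falls were Ndn, Sgce, Mest and Peg3, which are expressed from the paternal copy. Ndn read 263 and 204 in tumors 24 and 26 and under the floor in the other 3 tumors, and 1119, 1434, 1066 and 1731 in the glands, and fell by 3.22 ± 0.34 on the log2 scale (adjusted p = 7.07e-06). Sgce and Mest fell by 2.71 ± 0.29 on the log2 scale (adjusted p = 9.34e-06) and 2.19 ± 0.50 on the log2 scale (adjusted p = 0.00664), without overlap.

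The comparison was also made apart in sets of arrays that share no array. Within lot 2001815, tumors 22, 24 and 26 against glands 23 and 25, 449 genes (7.02%) were called, 146 higher and 303 lower. For tumors 50 and 52 against glands 49 and 51, 497 genes (7.77%) were called, 102 higher and 395 lower. These arrays are the same that gave the 962 calls, so that the sign, which all 962 kept in both sets, is no separate evidence. A total of 252 genes were called in all 3 comparisons with the same sign, 32 higher and 220 lower. The difference between the array sets was called for 1 gene (0.0156%), Ucp1, with 516 probe sets at an unadjusted p under 0.05 in limma, and 5 probe sets were called without an intensity trend. In lot 2001815 all values of Ucp1 were at the floor, and on the other arrays the difference was -6.498, so that the sets differed by 6.50. The tissues of the second set lie in lots of their own, and there lot and tissue cannot be told apart.

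**Figure D4:**
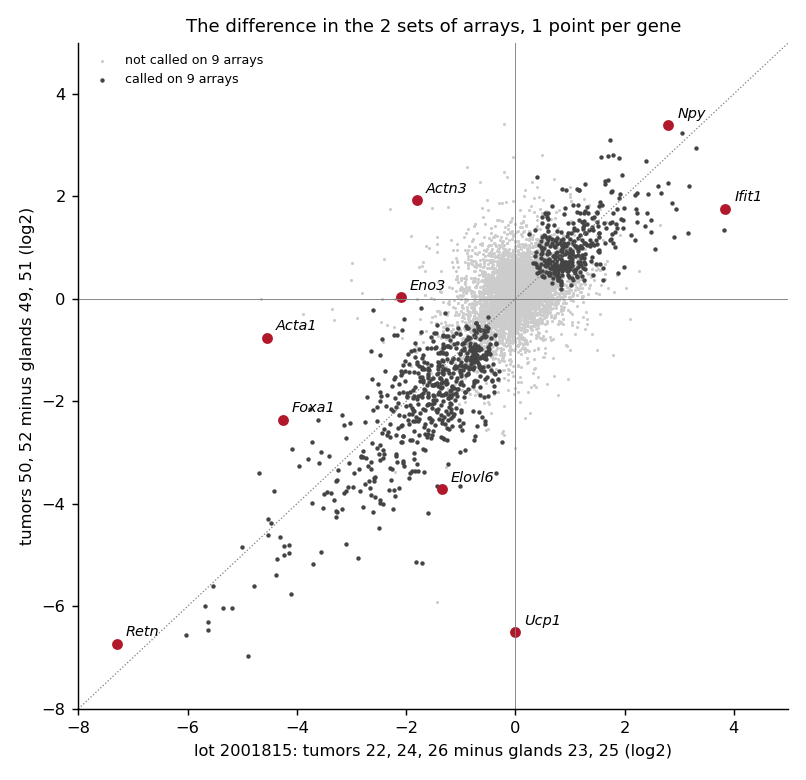
Log2 difference, tumor minus adjacent gland, of each of 6397 genes within lot 2001815 (horizontal) and between tumors 50 and 52 and glands 49 and 51 (vertical). Dark points were called on the 9 arrays, red points are named, and the dotted line marks equal differences. Ucp1 lies at 0 within the lot and at -6.50 on the other arrays, and Actn3 has opposite signs in the sets.

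Several transcripts that mark skeletal muscle followed the array sets. Of 23 tested, 2 fell, with a median of -1.05 over 9 arrays, -1.81 within lot 2001815 and 0.00 on the other arrays. Within the lot 13 fell, and on the other arrays 1 rose and 1 fell. On the 9 arrays the falls were 1 without tumor 22 or 26 or gland 23 or 25 and 5 without gland 49 or 51. Acta1, skeletal muscle actin, read 1339, 2296 and 112 in tumors 22, 24 and 26 and under the floor in the other 2 tumors, and 17373, 15564, 173 and 170.2 in the glands. Glands 23 and 25 were far above all other arrays, followed by tumors 22 and 24, all of the same lot. Its differences were -4.55 in lot 2001815 (adjusted p = 0.00996) and -0.76 on the other arrays (adjusted p = 0.71). Over 9 arrays the difference was -2.37 ± 1.37 (adjusted p = 0.301), and it was -1.25 without gland 23 and -1.303 without gland 25. Myl1, a fast myosin light chain, read 525, 1639, 443, 156 and 376 in the tumors, and 5642, 7250.4, 1145 and 1574 in the glands, and fell by 2.65 ± 0.60 on the log2 scale (adjusted p = 0.00664), with glands 23 and 25 again highest. Eno3, muscle enolase, differed by -2.098 in lot 2001815 (adjusted p = 0.000421) and 0.04 on the other arrays (adjusted p = 0.952). Actn3, an actinin of fast fibers, read 534, 399, 234, 338 and 444 in the tumors, and 1211, 1375 and 102 in glands 23, 25 and 49 and under the floor in gland 51, a difference of 0.05 ± 0.68 (adjusted p = 0.98) over 9 arrays. Its differences were -1.81 in lot 2001815 (adjusted p = 0.0183) and 1.93 on the other arrays (adjusted p = 0.0172), opposite in sign. The muscle marker Ckm was alike in both tissues, at 449.6 to 984.7 in the tumors and 346.1 to 988.5 in the glands. Its difference was 0.244 (adjusted p = 0.788), and Mylpf and Tnnt3 were at -0.345 and -2.034 (adjusted p = 0.751 and 0.121). Brown fat genes in glands 49 and 51 and several muscle genes in glands 23 and 25 thus moved with lot, and their part in the other differences was not tested.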

How the data were processed

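One array per sample gave an intensity for each of 12488 probe sets. The deposited intensities are linear and, from their values, had been brought by the authors to nearly equal trimmed means; software and version are not given in the sources used here. Controls were left out (66 probe sets), values under 101 (20th percentile) were raised to it, and log2 was taken. Probe sets above their array's 40th percentile on at least 3 arrays were tested (8616; 3806 were removed).

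All 14 arrays, in 4 groups, were fitted with limma 3.58.1 (R 4.3.3; intensity trend), with Benjamini-Hochberg adjustment over all probe sets. Each gene was represented by its probe set of highest mean. Symbols came from the platform annotation, updated to GRCm38.p6: 10855 probe sets had 1 gene, 396 several and 1237 none. The test was checked on simulated data with independent noise and no lot effect, so that check does not bear on lot. The comparison and gene lists were chosen with earlier results of these data known. Named genes were the 12 largest rises and falls without overlap, up to 4 called members of each list (or 2 of smallest p), 8 per direction called in both array sets, 6 per sign of smallest interaction p, and members needed to account for a list. Alternatives covered lot, floor, filter, scaling, trend, probe set and each array left out.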

Additional observations from a re-analysis of the deposited data

Results flagged for a closer look

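Within the tumors or within the glands, a single array stood apart by Dixon's test in 15 of 237 groups of values tested, and chance gives about 1 in 20. Among glands these were gland 25 for Ces1d (4790.3) and Col17a1 (213.7), gland 51 for Cpa3 (1313) and Igfbp6 (9209), and gland 49 for Hmox1 (3803) and Car8 (523). Among tumors these were tumor 22 for Csn2 (5083) and Tspan8 (7803), tumor 24 for Srebf1 (26784), Fut8 (1941) and Scrg1 (1137), tumor 50 for Dusp1 (1140.0) and Prkca (1764), and tumor 52 for Mrc1 (201.5) and Igfbp6 (572). The difference of Ucp1 was 6.50 higher on the log2 scale in lot 2001815 than on the other arrays, by the interaction term of the limma fit.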

How the results depend on the processing

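No paired analysis was possible because the labels pair no tumor with a gland and the groups share no replicate number. Against 460 probe sets called higher and 779 lower, lot 2001815 alone, equal here to lot as a fixed block, gave 187 and 410, and tumors 50 and 52 against glands 49 and 51 gave 135 higher, both with fewer arrays. With 1 array left out, 281 (without gland 51) to 524 were higher and 597 to 855 lower. Without an intensity trend 5 probe sets were called for the difference between array sets. The alternatives were followed for 120 of the called genes named in the text. Itgb4, Trp63, Irf1, Ifi204 and Peg3, also named as called, were not among them. Of the 120, 87 were called within the lot, 83 on the other arrays, and 114 in every fit with 1 array left out. The exceptions to the last were Ccnd1, Erbb3, H2-Aa, Kit, Lep and Pcna. Calls lost within the lot were Cidea, Kit, S100a6, Npnt, Col11a1, Col9a1, Col17a1, Tie1, Ighm, Mrc1, H2-Aa, Ccl9, Cxcl9, Lbp, Tgfa, Erbb3, Id1, Inhbb, Igfbp4, Hey1, Pcna, Ccnd1, Sdha, Elovl6, Trib3, Nqo1, Hmox1, Car12, Mest, Npy, Scrg1, A2m and Prkca. On the other arrays they were Lep, Kit, Socs2, S100a6, Aldoc, Npnt, Col11a1, Ebf1, H2-Aa, Ccl9, Ifit1, Usp18, Irf7, Tgfa, Erbb3, Dusp6, Id2, Il6st, Igfbp3, Pcna, Ccnd1, Cdkn2c, Srebf1, Ldhb, Trib3, Xbp1, St3gal5, Car12, Xist, Mest, Npy, Scrg1, Hs3st1, A2m, Shf, Tspan8 and Prkca. Without the filter 12 were lost, Lep, Kit, S100a6, Aldoc, H2-Aa, Ccl9, Erbb3, Pcna, Ccnd1, Trib3, Xist and A2m. With the floor at the 40th percentile 4 were lost, Cpa3, Cxcl9, B3galt2 and Mest. With the dimmest probe set, which 23 of the genes have apart from the brightest, 7 were lost, Lcn2, Ighm, Cma1, Irf7, Il6st, Ccnd1 and Nqo1. On the 9 arrays alone 5 were lost, Kit, H2-Aa, Erbb3, Pcna and Ccnd1, and without an intensity trend 4, Lep, H2-Aa, Erbb3 and Pcna. Pcna was also lost with merged lots, with a random lot block and with quantile normalization, and H2-Aa with median centring. Signs turned for Aqp1 (1.12) and Tpsb2 (0.30) with the gene's dimmest probe set, for Eno3 (0.041) on the other arrays, and for Actn3, at -1.81 within the lot and with the lot block, -0.11 with 2004097 and 2004907 as 1 lot, -0.24 with lot as a random block, -0.72 with the floor at the 40th percentile, and -0.56 to 0.69 with 1 array left out. The cause was not tested. Signals near the floor limit how large a fall can be measured: 19 genes had every tumor at the floor and 121 some.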
